A study of Rattus norvegicus with 85 samples.

Results

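RNA editing was compared between the prefrontal cortex (PFC) and the amygdala (AMY) of adult control rats. Samples were chosen by their labels alone, PFC or AMY with age P60, generation F0 and treatment Control, which gave 10 of the 85 samples of the series, 5 from each region. All 10 came from unstressed Sprague-Dawley females, labelled P60 for postnatal day 60, and the rats carried no transgene or deletion that the labels name. The labels do not tie a PFC and an AMY sample to the same animal, so the regions were compared as unpaired groups. Each exact p is the share of all splits of these samples into groups of the same sizes that are at least as extreme. It treats the samples as independent. Editing was read by mmPCR-seq, in which many short targets are amplified from cDNA in parallel and sequenced. The deposited files give, at 179 positions, the reads, the edited reads and the editing level, here in percent. Of these, 146 are edited sites of the study's list, and a site was tested where at least 3 samples of each region had 50 reads or more. This left 140 sites. The other 6 (Airn, Mcrs1, Slco2a1, 1 site of Usp29 and 2 of Psma3) had too few samples in 1 or both regions. Coordinates are those of the rat build rn4.

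In A-to-I editing, enzymes of the ADAR family deaminate adenosines in double-stranded RNA to inosine, which ribosomes and sequencers read as guanosine. In the brain, some of these sites recode a protein: a glutamate receptor subunit, for example, can carry arginine in place of glutamine in the pore, or glycine in place of arginine beside the ligand-binding region. Such substitutions are known to alter calcium permeability, gating or assembly of the channel, and editing of the serotonin receptor Htr2c is known to weaken its G-protein coupling. Most other sites lie in 3′ untranslated regions (UTRs), where their effect is mostly unknown. The PFC serves planning and the control of behaviour, and the AMY the processing of emotion and threat. Both are mixtures of neurons and glia. In such bulk tissue, a change in the level within cells and a change in which cells supply the transcript cannot be told apart. Marker transcripts were not measured, so the dissection labels were not tested.

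Each level came from a single PCR product, and sites in the same product share molecules. The primers of 4 products that carry main results are shown without their adaptor tails, 5′ to 3′, in lower case. They show how short a stretch of cDNA anchors each measurement, and that the Gria2 R/G and Grik2 Q/R sites each share a primer pair with a neighbouring site.
Gria2 (R/G and L sites), forward: ttttccttacttcccgagtcc
Gria2 (R/G and L sites), reverse: catcgccacacctaaaggat
Cacna1d (3 sites), forward: gctctttccgcttcttgaatt
Cacna1d (3 sites), reverse: ccgcgctgtgataaagaaaa
Grik2 (Q/R and Met/Val sites), forward: tttgggcatgagctcagaa
Grik2 (Q/R and Met/Val sites), reverse: tgtcatagccaggtttagtcc
Mpeg1 (3′ UTR site), forward: catcaaacctgcttcttgaaca
Mpeg1 (3′ UTR site), reverse: gtgccttgttttgcagactta

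Summed over the 146 listed sites, PFC samples held 149296 to 1454247 reads and AMY samples 210835 to 3270097, a read being counted once per site within it. Depth therefore moved with region. The shallowest AMY sample, number 11, nevertheless had fewer reads than 4 of the 5 PFC samples. All PFC samples and AMY samples 2, 3 and 11 had library numbers in 1 set of 48 consecutive numbers. AMY samples 4 and 8 were in another set. The labels name no such sets, and cutting the library numbers into blocks of 48 was a choice made here. For a level of 50% on 50 reads, the 95% Wilson interval runs from 36.6% to 63.4%, and 3 edited reads make 6%. PCR duplicates cannot be removed here, as no molecular identifiers were used, so that intervals and floors cover counting error only.

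PFC sample 29, the shallowest, stood apart from its group. Over the 114 sites measured in every sample, 21 of its levels were more than 10 percentage points from the median of the other PFC samples, against 0 to 4 sites in each of the other 9 samples. Its median level was 0.6%, compared to 3.6% to 5.8% in the others. Its levels ran to both extremes: at the Ankrd28 3′ UTR site at chromosome 16, 7168464, it was at 99.3% where the other PFC samples were between 14.4% and 25.9%, and at the neighbouring site 7168481 it was at 0.2% where they were between 16.2% and 21.3%. For the main results that rest on it, values are given below with and without it.

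**Figure D1:**
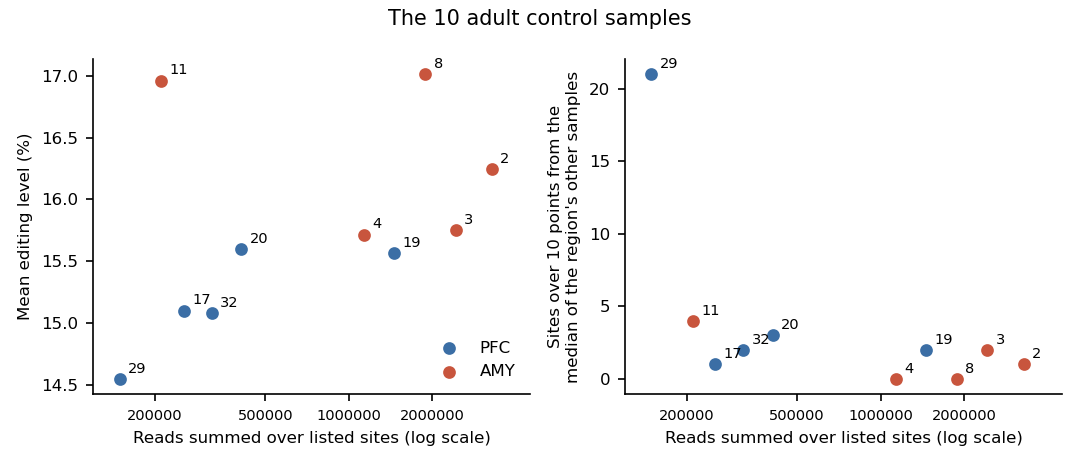
The 10 adult control samples, each point 1 sample with its number, plotted against the reads summed over the 146 listed sites on a log scale. Left, the mean editing level in percent over the 114 sites measured in every sample, where all AMY samples lie above all PFC samples. Right, the number of those sites more than 10 percentage points from the median of the region's other samples, where PFC sample 29 stands at 21 and the others at 4 or fewer.

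Averaged over the 114 sites, editing was slightly higher in the AMY. The per-sample means in the PFC were 14.5% (29), 15.1% (32), 15.1% (17), 15.6% (19) and 15.6% (20). In the AMY they were 15.7% (4), 15.8% (3), 16.2% (2), 17.0% (11) and 17.0% (8). The regions did not overlap, though the highest PFC and the lowest AMY sample were close to each other. The group means were 15.2% ± 0.429 and 16.3% ± 0.629 (SD, n = 5 each), a difference of 1.16 points (two-sided exact permutation p = 0.00794, the smallest that 5 against 5 can give). The difference was 1.01 points without PFC sample 29 (exact permutation p = 0.0238) and 1.14 points with the AMY samples of the shared library set alone (exact permutation p = 0.0179). It did not pass when levels were averaged on the logit scale (exact permutation p = 0.143), which gives weight to sites with low levels.

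Site by site, 94 of the 140 tested sites had a higher mean in the AMY and 46 a lower one. The median difference was 0.5 points, and 65 sites differed by at most 1 point. With an exact two-sided Mann-Whitney U test, and Benjamini-Hochberg values computed separately over the 40 nonsynonymous and the 100 other sites, no site passed an FDR of 0.1 (0% of the tested sites). The smallest adjusted p-values were 0.106 among nonsynonymous and 0.132 among other sites. Without adjustment, the exact p was under 0.05 at 18 sites, 12.9% of those tested. Of these, 17 (12.1%) were higher in the AMY, and the Grik2 Q/R site alone was lower. The 18 sites lie in 16 PCR products. At 9 of them, 6.43% of the sites tested, the 5 PFC samples and the 5 AMY samples did not overlap, which is the most that 5 against 5 can show (exact p = 0.00794 each). These 9 sites come from 9 separate products of 9 transcripts.

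**Figure D2:**
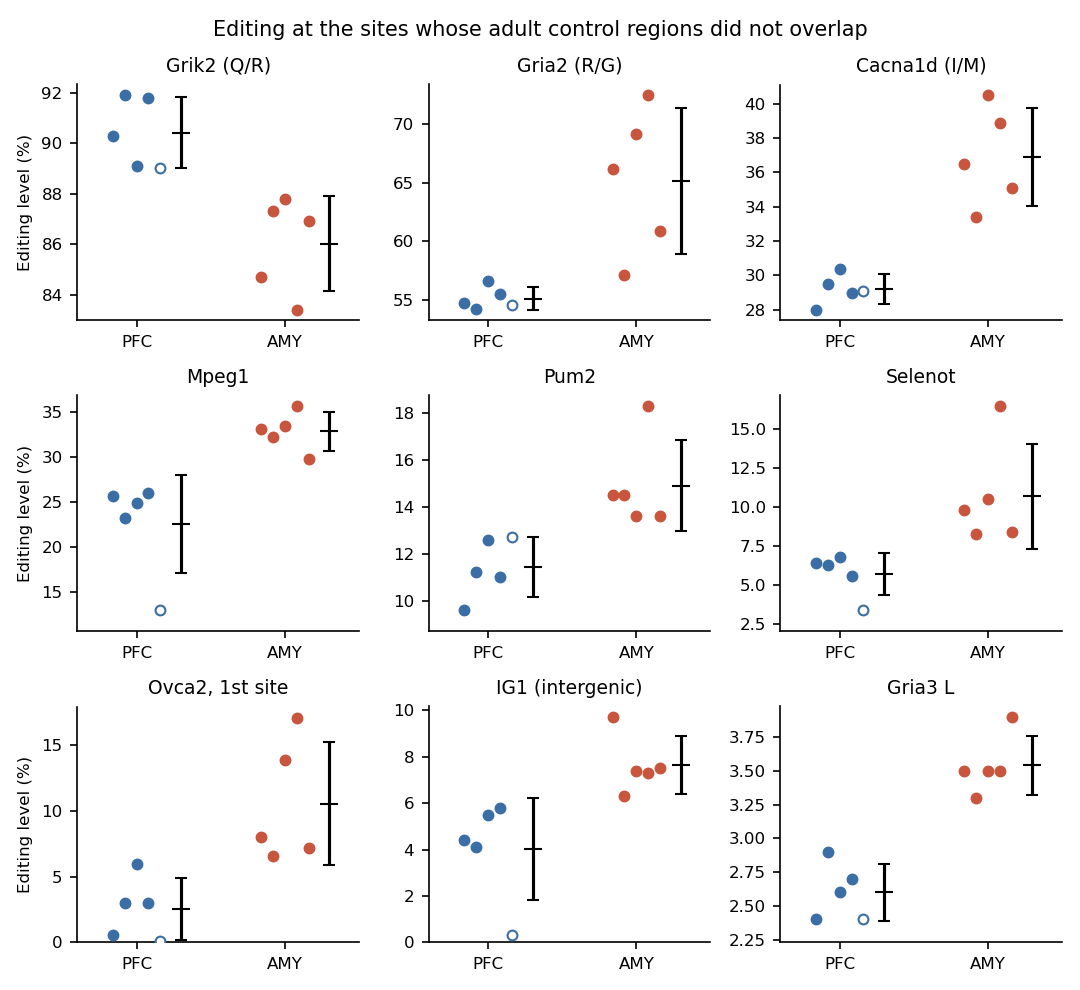
Editing level in percent at the 9 sites whose regions did not overlap, 1 panel per site with its own scale that need not start at 0. Points are samples (blue PFC, red AMY, 5 each, the open point PFC sample 29), and bars are the mean ± SD. Grik2 Q/R is the only panel in which the PFC points lie above the AMY points.

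Among the AMPA receptor subunits, which form the fast excitatory glutamate receptors, the regions were farthest apart at the Gria2 R/G site (chromosome 2, 172272247, Arg to Gly), known for its part in recovery from desensitization. The PFC levels were 54.2% (20), 54.6% (29), 54.7% (19), 55.5% (17) and 56.6% (32). The AMY levels were 57.1% (3), 60.9% (4), 66.2% (2), 69.2% (11) and 72.5% (8). The PFC samples thus lay within a narrow band, while the AMY samples were spread over a range several times as wide that began just above it. The means were 55.1% ± 0.952 and 65.2% ± 6.21 (SD, n = 5 each), a difference of 10.1 points (exact p = 0.00794, adjusted p = 0.106, Mann-Whitney U test). PFC sample 29, with 831 edited of 1522 reads, had a Wilson interval from 52.1% to 57.1%, and the shallowest AMY sample, 11, had one from 67.1% to 71.3%. With the reads of each region pooled, which gives the deep samples most weight, the difference was 9.29 points (exact permutation p = 0.119).

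The same R/G position in the other AMPA subunits showed no such gap. Gria3 (chromosome X, 3477800) was at 94.0% ± 1.79 in the PFC and 94.5% ± 0.802 in the AMY, and Gria4 (chromosome 8, 994881) at 64.1% ± 6.57 and 65.4% ± 4.33 (n = 5 and 4), with exact p-values of 0.69 and 0.73. The synonymous leucine site 1 base away from each R/G site was edited at a few percent or less and was higher in the AMY in all 3 genes: from 1.22% ± 0.228 to 1.78% ± 0.476 in Gria2 (exact p = 0.0238), from 2.6% ± 0.212 to 3.54% ± 0.219 in Gria3 (exact p = 0.00794) and from 0.3% ± 0.245 to 1.15% ± 0.42 in Gria4 (n = 5 and 4, exact p = 0.0238). These differences were under 1 point each, and without PFC sample 29 the exact p was 0.0556 in Gria2 and 0.0571 in Gria4. The Gria2 Q/R site (chromosome 2, 172288193), which sets calcium permeability, was almost fully edited in both regions, at 99.8% ± 0.195 and 99.9% ± 0.0447. Of the 10 AMPA sites tested, 4 had an exact p under 0.05, all higher in the AMY, against 18 of the 140 sites in all, and 2 did so without PFC sample 29. Their median difference was 0.52 points, against 0.5 over all sites.

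Among the kainate receptor subunits, the Q/R site of Grik2 ran the other way. At this site (chromosome 20, 53378633, Gln to Arg in the pore), the PFC levels were 89.0% (29), 89.1% (32), 90.3% (19), 91.8% (17) and 91.9% (20). The AMY levels were 83.4% (8), 84.7% (2), 86.9% (4), 87.3% (3) and 87.8% (11). Every AMY sample was below every PFC sample, with means of 90.4% ± 1.4 and 86.0% ± 1.88 (SD, n = 5 each) and a difference of -4.4 points (exact p = 0.00794, adjusted p = 0.106). Unedited transcripts keep glutamine and are known to form channels more permeable to calcium. This site had at least 2186 reads in every sample.

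At the Grik2 Y/C site (53408958), PFC samples 17, 19, 20 and 32 were between 88.9% and 93.0%, and the AMY samples between 83.5% and 88.3%. PFC sample 29, at 81.6%, lay below all of them. With it the difference was -3.78 points (exact p = 0.151), and without it -5.79 points with no overlap (exact p = 0.0159). The Grik2 I/V site (53408971), in the same product, was at 82.6% ± 3.98 and 82.7% ± 1.71 (n = 5 each). The Met/Val site (53378637), in the product of the Q/R site, was at 7.04% ± 2.1 and 6.3% ± 1.13 (exact p = 0.286). Grik1 (chromosome 11, 27749588, Gln to Arg) was at 47.8% ± 10.2 and 52.5% ± 3.36, and the low PFC sample was again number 29, at 30.8%. Of the 7 kainate sites tested, 4 had a lower mean in the AMY. Their median difference was -0.06 points, and -0.83 without sample 29.

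**Figure D3:**
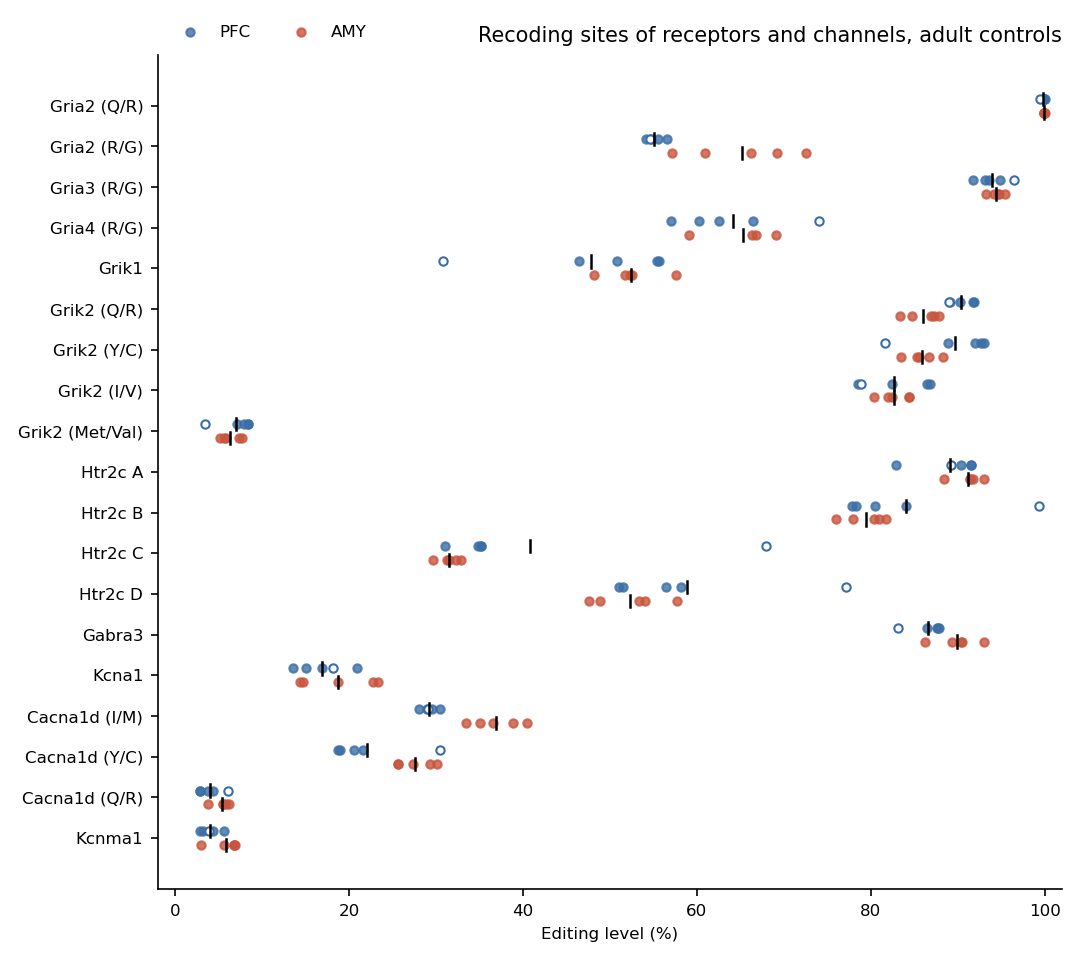
Editing level in percent at 19 recoding sites of receptors and channels in the 5 PFC (blue) and 5 AMY (red) adult control samples. Points are samples (open, PFC sample 29), black ticks are group means, and Gria4 R/G has 4 AMY samples. Regions separate at Gria2 R/G, Grik2 Q/R and Cacna1d I/M, and the PFC means of Htr2c B, C and D are pulled up by the open point.

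In the voltage-gated calcium channel Cacna1d (CaV1.3), 3 recoded positions lie in the IQ domain, which takes part in calcium-dependent inactivation. At its Ile to Met site (chromosome 16, 5405840), the PFC levels were 28.0% (19), 29.0% (17), 29.1% (29), 29.5% (20) and 30.4% (32). The AMY levels were 33.4% (3), 35.1% (4), 36.5% (2), 38.9% (8) and 40.5% (11). All AMY samples were above all PFC samples. The means were 29.2% ± 0.869 and 36.9% ± 2.86 (SD, n = 5 each), a difference of 7.68 points (exact p = 0.00794, adjusted p = 0.106). The Tyr to Cys site (5405832) was at 18.7% to 21.6% in the PFC without sample 29, which was at 30.5%, and at 25.6% to 30.1% in the AMY. Its difference was 5.52 points with that sample (exact p = 0.127) and 7.63 points without it (exact p = 0.00794). Tied levels put the latter p below 0.0159, the smallest that 5 against 4 can give without ties. The Gln to Arg site (5405838) was low in both regions, at 3.98% ± 1.34 and 5.36% ± 0.918 (exact p = 0.159, and 0.0476 without sample 29). The 3 sites share a PCR product and are not independent measurements. The potassium channels overlapped: Kcna1 (chromosome 4, 163012291), where editing is known to speed recovery from inactivation, was at 16.9% ± 2.85 and 18.8% ± 4.26, and Kcnma1 (chromosome 15, 322937) at 3.98% ± 1.06 and 5.82% ± 1.66 (n = 5 each, exact p = 0.548 and 0.111). Without AMY sample 11, the lowest of its group, Kcnma1 differed by 2.55 points (exact p = 0.0238). This sample was picked by that result after each had been left out in turn. The single samples left out below for Htr2c C, Gabra3, Cadps and Igf1 were picked in the same way. At the 39 named sites whose exact p was not under 0.05, 9 of 384 values with a sample left out fell under it. All 5 channel sites had a higher mean in the AMY, with a median difference of 1.86 points.

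At Htr2c, whose 4 adjacent recoding sites A to D lie in the second intracellular loop, the PFC means of sites B, C and D were raised by PFC sample 29. Site A was at 89.1% ± 3.59 in the PFC and 91.2% ± 1.7 in the AMY, and site B at 84.0% ± 8.93 and 79.4% ± 2.37. Site C was at 40.8% ± 15.2 and 31.5% ± 1.21, and site D at 58.9% ± 10.6 and 52.3% ± 4.08 (n = 5 each). Sample 29 was at 99.4%, 67.9% and 77.1% at sites B, C and D, the highest of all 10 samples at each. Without it, the differences shrank from -4.6 to -0.755 points at B, from -9.28 to -2.51 at C and from -6.56 to -2 at D, and none had an exact p under 0.05 with or without it. Without PFC sample 20, which leaves sample 29 in, site C differed by -11.7 points (exact p = 0.0159). Gabra3 (chromosome X, 158405626), a GABA-A receptor subunit with an Ile to Met site, was at 86.6% ± 2.01 in the PFC and 89.9% ± 2.46 in the AMY. Its groups overlapped through AMY sample 3 at 86.2% (exact p = 0.0952), and without that sample the difference was 4.24 points (exact p = 0.0159).

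Other recoded transcripts differed little. The actin crosslinker Flna had levels of 31.8% ± 7.44 (PFC) and 34.3% ± 4.73 (AMY, exact p = 0.421). Copa, a coatomer subunit of vesicle transport, was at 9.92% ± 1.09 and 11.4% ± 1.63 (exact p = 0.0873, and 0.0159 without sample 29). The Glu to Gly site of Cadps, a priming factor of dense-core vesicles, was at 26.4% ± 1.77 and 29.2% ± 3.14 (exact p = 0.0873, and 0.0159 without AMY sample 8). Azin1, which promotes polyamine synthesis, was under 1% in both means. The Arg to Gly site of cyclin I (Ccni, chromosome 14, 16452369) was among the 18, at 1.86% ± 0.537 and 2.94% ± 0.709 (exact p = 0.0238). At the 3 Blcap sites and the 8 Son sites no exact p was under 0.05, and single libraries dominated some of them, such as AMY sample 2 at 53.0% at the Son site 31628548, where the other 9 samples were between 0.2% and 4.9%. A like case was Nova1, a neuronal splicing factor. Its site 66199286 had 3 measured samples a side and read 97.2%, 51.4% and 0.1% in the AMY against 0.3% to 0.5% in the PFC (exact p = 0.7), so that the largest difference in means of all tested sites, 49.2 points, was not distinguishable from the spread.

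Of the 18 sites, 10 lie in 3′ UTRs, where 70 of the 140 tested sites lie. Among these 10 the regions were farthest apart at Mpeg1 (chromosome 1, 215391800), a perforin-like transcript of macrophages and microglia. Its PFC levels were 13% (29), 23.2% (20), 24.9% (32), 25.7% (19) and 26% (17). The AMY levels were 29.8% (4), 32.2% (3), 33.1% (2), 33.4% (11) and 35.7% (8). The regions did not overlap, and sample 29 was again far below its group. The means were 22.6% ± 5.45 and 32.8% ± 2.13 (SD, n = 5 each), a difference of 10.3 points (exact p = 0.00794, adjusted p = 0.132), and of 7.89 points without sample 29 (exact p = 0.0159).

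Levels without overlap were also found at Pum2 (chromosome 6, 32231647), a repressor of translation, with 11.4% ± 1.28 in the PFC and 14.9% ± 1.95 in the AMY. Selenot (chromosome 2, 147928323), a selenoprotein of the endoplasmic reticulum, was at 5.7% ± 1.36 and 10.7% ± 3.37. At Ovca2 (chromosome 10, 62483573), a member of the serine hydrolase superfamily, the means were 2.54% ± 2.35 and 10.6% ± 4.68, and at the intergenic site IG1 (chromosome 7, 138469220) they were 4.02% ± 2.2 and 7.64% ± 1.25 (n = 5 each, exact p = 0.00794 and adjusted p = 0.132 at all 4). PFC sample 29 was the lowest of all at Selenot, Ovca2 and IG1, with 3.4%, 0.1% and 0.3%, and AMY sample 8 the highest at Pum2, Selenot and Ovca2. Leaving out sample 29 lowered the difference from 5 to 4.425 points at Selenot and from 8.02 to 7.41 at Ovca2. At IG1 it fell from 3.62 to 2.69 points (exact p = 0.0159 at all 3). The growth factor Igf2 (chromosome 1, 202908966) was at 17.4% ± 2.47 and 25.4% ± 4.31, with the highest PFC sample at 20.5% and the lowest AMY sample at 20.3% (exact p = 0.0159). Igf1 was at 8.16% ± 5.87 and 14.0% ± 1.89, and overlapped through PFC sample 20 at 18.1% (exact p = 0.127). Without that sample the difference was 8.37 points (exact p = 0.00794, which tied levels put below the untied minimum of 0.0159 for 5 against 4).

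Further 3′ UTR sites with an exact p under 0.05 were Ankrd28 7168481 (15.5% ± 8.75 and 23.4% ± 2.08), the second Ovca2 site (0.46% ± 0.207 and 2.1% ± 1.25), the presynaptic scaffold Ppfia3 (2.16% ± 1.82 and 4.74% ± 1.22) and the secreted protease Htra1 (1.14% ± 0.391 and 2.04% ± 0.611, n = 5 each). All were higher in the AMY, though for Htra1 the exact p did not stay under 0.05 when any of several single samples was left out (0.0635 without AMY sample 8). Leaving out PFC sample 29 lowered the difference at Ppfia3 from 2.58 to 2.04 points (exact p = 0.0397). At Ankrd28 7168481, where that sample was at 0.2%, the difference fell from 7.94 to 4.12 points (exact p = 0.0317). Ankrd28, a scaffold subunit of a phosphatase complex, has 20 tested sites in its 3′ UTR, and 16 of them had a higher mean in the AMY, but only site 7168481 reached an exact p under 0.05. Over the 70 sites of 3′ UTRs, 51 had a higher mean in the AMY and the median difference was 0.89 points, against 26 of 40 and 0.388 points for nonsynonymous sites. Leaving out PFC sample 29 lowered these medians to 0.6025 points for 3′ UTR sites and 0.06 points for nonsynonymous sites. The 42 tested sites of the clustered 3′ UTR list, Ankrd28 included, had a median difference of 1.18 points, and 0.72 without sample 29. Outside the study's list, 2 further positions of the files, both within the Htr2c product, had enough reads and were at 0% in all 10 samples.

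The same comparison can be made in adults that share no sample with these. Females of the pre-reproductive stress group (PRS), stressed in adolescence and labelled P60 and F0 as well, gave 6 PFC and 7 AMY samples. All PRS PFC samples were in the library set of the control PFC samples. AMY samples 14 and 162 were in the other set, the one that held control AMY samples 4 and 8. Library set therefore moved partly with region in both comparisons. With the AMY samples of the shared set alone, the control difference in mean level was 1.14 points, as given above (exact permutation p = 0.0179). The effect of set itself was not tested. In PRS adults, 144 sites were tested. The exact p was under 0.05 at 33 of them (22.9%), 24 of which (16.7%) were higher in the AMY, and 20 sites (13.9%) passed FDR 0.1. With 6 against 7 the exact p can go down to 0.00117, so that counts are not comparable between the 2 comparisons. Of the 18 sites above, 17 ran the same way in PRS adults, 12 of them with an exact p under 0.05 and 9 at FDR 0.1. Of the 9 without overlap in controls, 8 ran the same way with an exact p under 0.05. Over all 144 sites the shift was smaller than in controls: 85 had a higher mean in the AMY, with a median difference of 0.125 points. The mean level over the 137 sites measured in every PRS sample, where controls had 114 such sites, differed by 0.661 points (exact permutation p = 0.042).

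In these PRS adults, Gria2 R/G was at 53.4% ± 2.58 in the PFC (n = 6) and 63.3% ± 5.13 in the AMY (n = 7), a difference of 9.95 points (exact p = 0.00466, adjusted p = 0.0266). Grik2 Q/R was at 90.9% ± 1.43 and 86.2% ± 1.98, a difference of -4.62 points (exact p = 0.00233, adjusted p = 0.0233). Cacna1d Ile to Met differed by 5.86 points (exact p = 0.00408, adjusted p = 0.0266). The exception among the 9 was the Gria3 leucine site, at 3.33% ± 0.52 and 3.31% ± 0.426 (exact p = 1). Of the sites whose exact p in controls was under 0.05 only without PFC sample 29, Grik2 Y/C differed by -5.6 points in PRS adults and Cacna1d Tyr to Cys by 6.03 (exact p = 0.00117 and 0.00233, adjusted p = 0.0233 each), whereas Copa differed by -0.169 (exact p = 0.945). Grik2 Met/Val, without such a p in controls, differed by -1.58 (exact p = 0.00175, adjusted p = 0.0233). A test of the difference between the control and the PRS region effects (limma interaction term on the log2 odds of editing, 138 sites) called no site at FDR 0.1 (0%), with a smallest adjusted p of 0.778 and 4 sites at an unadjusted p under 0.05. This does not show that the effects are equal.

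**Figure D4:**
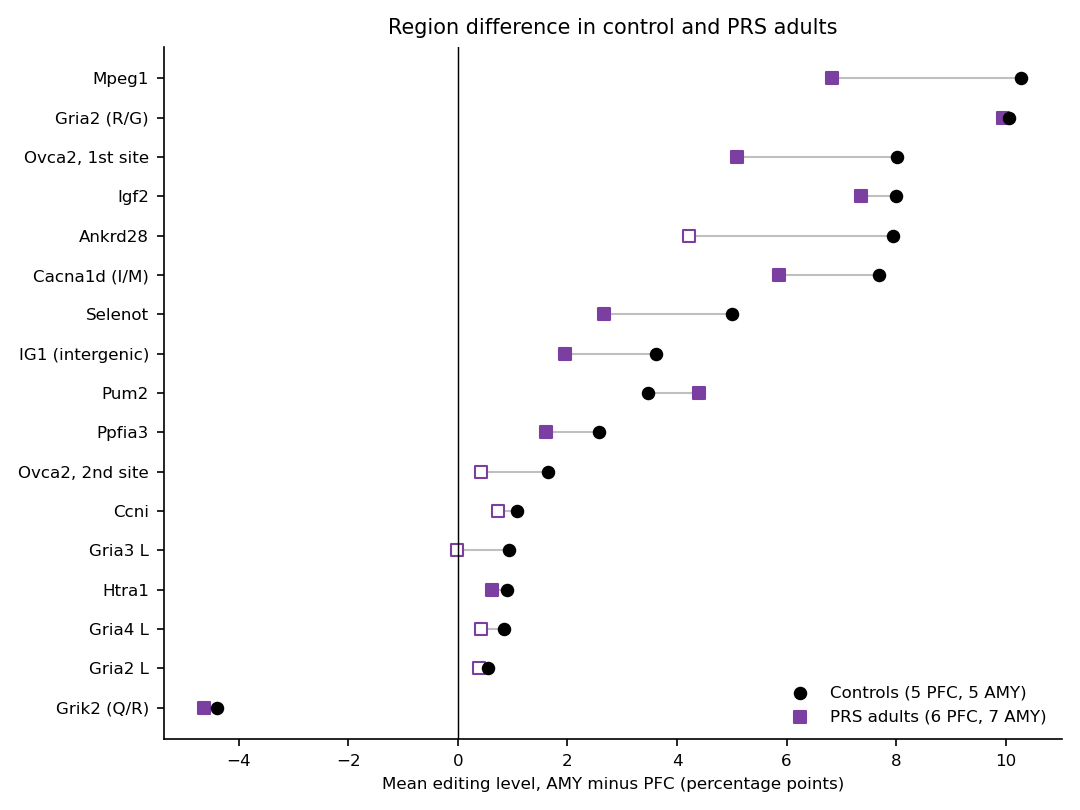
Mean editing level in the AMY minus the PFC, in percentage points, at 17 of the 18 sites with an exact p under 0.05 in adult controls. Black circles are controls (5 PFC, 5 AMY) and squares are PRS adults (6 PFC, 7 AMY), filled where the exact p in PRS adults is under 0.05, as at 11 of the sites plotted. Grik2 Q/R lies to the left of 0 in both.

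In neonates, region differences were set beside the adult ones in control offspring at postnatal day 0 (P0, generation F1, 5 PFC samples from 1 female and 4 males, and 5 AMY samples from 2 females and 3 males). Age, sex and generation therefore changed together and cannot be told apart. Of 146 sites tested at P0, 25 (17.1%) had an exact p under 0.05, 24 of them higher in the AMY, and 7 (4.79%) passed FDR 0.1. The P0 libraries also came from 2 sets of library numbers for the PFC and 3 for the AMY. The region difference itself differed between the P0 and P60 samples at 1 of 140 sites (0.714%), Grik2 Q/R (limma interaction term, adjusted p = 0.0172, 1.56 on the log2 odds scale). At P0 its PFC levels were 66.2%, 68.3%, 79.2%, 79.5% and 80.0%, and its AMY levels 83.7%, 85.5%, 85.7%, 85.8% and 85.8%. The AMY was thus above the PFC at P0 by 10.7 points (exact p = 0.00794, adjusted p = 0.0542) and below it at P60, with an AMY mean of 85.3% at P0 against 86.0% at P60 and a PFC mean of 74.6% against 90.4%. The call was made with each of the 20 samples left out (adjusted p from 0.0106 to 0.0468). Without PFC sample 29, Grik2 Met/Val and Y/C were called as well (limma, adjusted p = 0.0601 each). Leaving out another single sample also called Igf1 (limma, adjusted p = 0.0235 without PFC sample 20 at P60, and 0.0679 and 0.0784 without PFC samples 71 and 66 at P0) or Dffa (limma, adjusted p = 0.0623 without AMY sample 3 at P60).

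Gria2 R/G was higher in the AMY at both ages, by 15.5 points at P0 (exact p = 0.0159, adjusted p = 0.093). Cacna1d Ile to Met was at 19.1% in the PFC and 17.9% in the AMY at P0, a difference of -1.28 points (exact p = 0.452), and its interaction with age did not pass (limma, adjusted p = 0.486). The Gria4 R/G and Kcna1 sites, which overlapped in adults, did not overlap at P0, with differences of 16.9 and 2.78 points (exact p = 0.00794 and adjusted p = 0.0542 each). Their interactions with age did not pass (limma, adjusted p = 0.351 and 0.346).

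**Figure D5:**
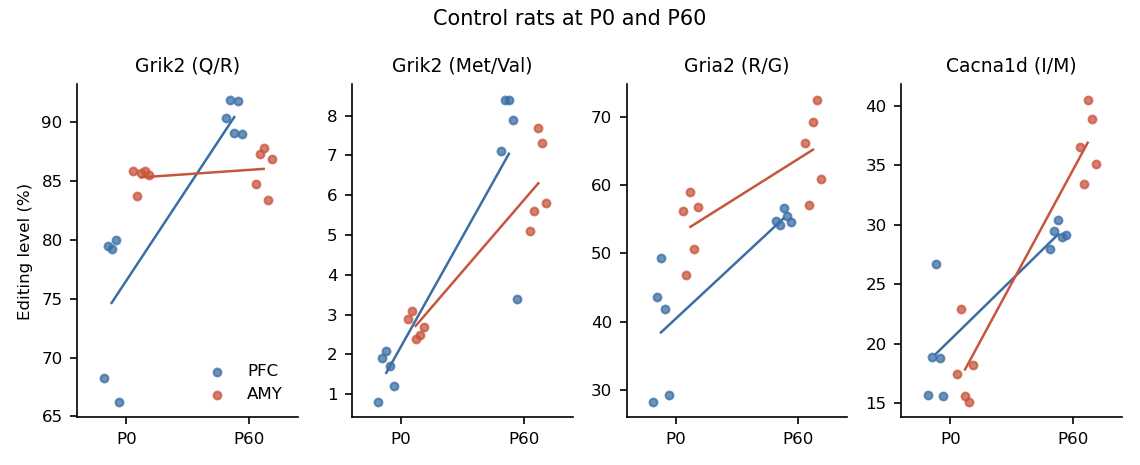
Editing level in percent at 4 sites in control PFC (blue) and AMY (red) samples at P0 (generation F1) and P60 (generation F0), 5 samples each. Points are samples, lines join group means, and each panel has its own scale that need not start at 0. At Grik2 Q/R the AMY lies above the PFC at P0 and below it at P60, whereas at Gria2 R/G it lies above the PFC at both ages.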

How the data were processed

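The authors amplified listed targets from cDNA, mapped the reads to rn4 with BWA and, per the labels, used SAMtools. The deposited files hold counts of reads and of edited reads at each position, not normalized, and the editing level as a fraction with 3 decimals, given here as a percent. Levels depend on that mapping, which was not repeated here.

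Samples were grouped by their labels. The authors' minimum of 50 reads in at least 3 samples a side was applied here, with their Mann-Whitney U test, Benjamini-Hochberg adjustment and FDR of 0.1. Full enumeration of sample arrangements, mid-ranks where levels tied, and separate adjustment over nonsynonymous and other sites were choices made here. Interactions were fitted with limma 3.58.1 in R 4.3.3 on log2((edited + 0.5)/(unedited + 0.5)), adjusted over all sites. Named sites are those with an exact p under 0.05 and those of a list of well-known edited transcripts. Members and lists were chosen with earlier results of these data known. The alternatives were other tests, minimums of 200 reads or none, other site filters, the shared library set, PRS adults added, and each sample left out. Unrounded levels, and the alternatives for the overlap counts, PRS adults and interactions, were chosen after seeing the data. Steps were tested on simulated data. Other steps used scipy 1.17.1, pandas 2.3.3 and numpy 2.4.6 under Python 3.11.15, with figures from matplotlib 3.10.9. Oocytes, F2 and P0 PRS samples were not used here. Some named sites are not reported here.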

Additional observations from a re-analysis of the deposited data

Results flagged for a closer look

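At the named sites and for the mean level, 114 groups of 4 or 5 samples were examined for a sample far from the others, and 22 extremes stood out. Chance flags about 1 group in 20 when values are independent and normally distributed. Levels here were rounded and bounded, and some sites share a PCR product, so that rate is only a rough guide. Of the 12 in the PFC, 8 were sample 29: Htr2c B (99.4%), C (67.9%) and D (77.1%), Mpeg1 (13%), Cacna1d Tyr to Cys (30.5%), Grik2 Met/Val (3.4%), Gria2 Q/R (99.5%) and Ankrd28 7168481 (0.2%). The other PFC extremes were Htr2c A (82.9%) and Blcap 148267329 (7.3%) in sample 32, and Son 31628553 (16.2%) and Azin1 (0.3%) in sample 17. Of the 10 in the AMY, 7 were the highest level in sample 8: Selenot (16.5%), Pum2 (18.3%), Copa (14.3%), Blcap 148267368 (18.0%), Ccni (4.2%), Htra1 (3.1%) and Son 31628553 (2.1%). The others were Son 31628548 (53.0%) in sample 2, and Son 31628079 (6.1%) and Gria2 Q/R (100%) in sample 11. What set these samples apart was not tested.

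The region difference at Grik2 Q/R changed between P0 and P60 by 1.56 on the log2 odds scale (limma interaction term, adjusted p = 0.0172).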

How the results depend on the processing

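The count of 0 sites at FDR 0.1 held under every alternative that keeps to the 10 samples except 3: a quasi-binomial model of the reads called 10 sites, and testing only sites measured in all samples, or only those whose mean reached 1% in either region, called 3 each (Gria2 R/G, Grik2 Q/R and Cacna1d Ile to Met both times). With PRS adults added and labels permuted within treatment, 40 sites passed and 45 had an unadjusted p under 0.05. The count of 18 became 11 with samples of the shared library set and was 16 to 23 elsewhere. In the shared set only 119 sites could be tested, and 5 against 3 samples give no untied exact p under 0.0357. The difference in mean level became 1.56 points with reads summed over sites (exact permutation p = 0.0556) and 0.383 on the logit scale (exact permutation p = 0.143). It ranged from 0.988 to 1.31 points with 1 sample left out. The interaction with age called 1 to 3 sites with 1 sample left out. At the 18 sites no difference changed sign, and 22 of 143 values under alternatives and 22 of 180 with a sample left out no longer had a p under 0.05. At the 39 other named sites, 19 of 305 values under alternatives and 25 of 384 with a sample left out changed sign. None of these had a p under 0.05. A further 21 and 9 values kept their sign and gained a p under 0.05. No paired analysis was possible because the labels tie no PFC sample to an AMY sample and no sample number occurs in both regions. With 5 samples a region, the smallest exact p of 0.00794 keeps most single sites from passing an adjustment over 100 sites, and levels under 1% rest on few edited reads.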
